A study of Homo sapiens with 117 samples.

Results

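The regions described here are the CTCF sites that were among the strongest peaks in every CTCF ChIP-seq list of the experiment. They were selected on the fold values of all 24 lists: the 5000 peaks of highest fold were taken from each list, summits within 100 bp of each other were joined over all lists, and a site was kept when it held a summit from each of the 24 lists. This gave 1747 shared sites out of 9632 sites that were among the 5000 strongest of any list. For comparison, 13130 sites were among the 20000 strongest peaks of every list, and the 11383 of them that were not shared sites are called the other strong sites. Rank 1 is the highest fold in a list, and "stronger" means nearer to rank 1.

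CTCF is a zinc finger protein that binds a long, oriented DNA motif, blocks enhancers from reaching promoters across it, and stops the cohesin complex as it extrudes chromatin loops. Loops tend to form between sites whose motifs point toward each other. Methylation of cytosine within the motif can weaken binding at a subset of sites, which is why CTCF is studied in IDH1-mutant cells, whose oncometabolite D-2-HG inhibits the TET demethylases.

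All samples came from DIvA cells, a U2OS osteosarcoma derivative. In these cells a hormone-binding domain keeps the restriction enzyme AsiSI out of the nucleus until 4-hydroxytamoxifen (4-OHT) is added, and the enzyme then cuts its recognition sites; every group carried it. IDH1 WT or IDH1 R132H had been introduced with lentivirus, and cells were left untreated (-DSB) or given 300 nM 4-OHT for 4 h (+DSB). For the remaining groups, mutant cells were made to overexpress either the catalytic domain of TET1 (TET1 CD) or a dead version of it (TET1 dCD), with and without 4-OHT. Without DSB there were 3 lists for IDH1 WT (replicates 2 to 4), 4 for IDH1 R132H, 2 for TET1 CD and 3 for TET1 dCD. With DSB there were 4, 4, 2 and 2 in the same order, which makes 24.

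The run names written inside the lists went against some of the labels. The 3 lists labelled IDH1 WT -DSB carried the run name of untreated mutant cells, the 4 labelled IDH1 R132H -DSB that of untreated wild-type cells, and 2 of the 3 labelled TET1 dCD -DSB that of TET1 CD cells with 4-OHT. Groups follow the labels throughout, and where a call is lost or turned by run name this is said beside it. Lists of the same condition were compared in pairs at common summits of their 50000 strongest peaks, with a mean of 20 to 50 reads. In 11 of 27 pairs the reads did not differ beyond sampling noise (chi-square test, p of at least 0.05). Counting the lists of such pairs as 1 sample leaves 15 samples. The summits compared were weaker than those of the shared sites, which this check did not cover. Nothing in the labels says that replicates came from separate cultures. Lists held 111558 to 503609 peaks, and the shortest peak, taken as the fragment length, was 118 to 194 bp.

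The strongest of all shared sites lay mostly in repeated sequence near chromosome ends. Of the 10 sites of best median rank over the 24 lists, all but those near RABL2A on chromosome 2 and PROS1 beside the centromere of chromosome 3 were within 500 kb of a chromosome end. Of their windows of 61 bases, 5 were the same base for base, although they lie on 4 chromosomes. The windows below are reference sequence from GRCh38, read in the direction of the CTCF core motif, with the 12 bases of the core in capitals. They are shown because they are among the top ranks, and not all windows of the 10 sites are printed. The first also stands for chr1:11261-11321, chr1:181780-181840, chr12:11392-11452 and chr16:10942-11002, all on the minus strand, and the second also for chr21:46698410-46698470. The last holds no core with up to 1 mismatch and is in lower case throughout.
Near OR4F4, chr15:101979646-101979706, plus strand: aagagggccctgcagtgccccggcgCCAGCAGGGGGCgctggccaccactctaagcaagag
Near PGBD2, chr1:248944519-248944579, plus strand: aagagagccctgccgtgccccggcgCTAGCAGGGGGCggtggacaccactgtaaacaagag
Near RABL2A, chr2:113604175-113604235, minus strand: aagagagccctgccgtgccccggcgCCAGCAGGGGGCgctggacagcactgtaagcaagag
Near PROS1, chr3:93470552-93470612, plus strand: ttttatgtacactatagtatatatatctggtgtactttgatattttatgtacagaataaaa

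The site at chr3:93470582, 402 kb from PROS1 in AT-rich sequence with 22% GC, had the best median rank of all (4) and never fell below rank 10. It carried no match to the core with fewer than 4 mismatches. The site near OR4F4 on chromosome 15 ranked 4, 5 and 5 in IDH1 WT -DSB, 44, 17, 43 and 19 in IDH1 WT +DSB, 11, 24, 2 and 2 in IDH1 R132H -DSB, and 4, 4, 3 and 5 in IDH1 R132H +DSB. It ranked 4 and 4 in TET1 CD -DSB, 43 and 54 in TET1 CD +DSB, 16, 16 and 36 in TET1 dCD -DSB, and 4 and 5 in TET1 dCD +DSB. It thus never ranked beyond 54. Its weakest ranks (54, 44, 43, 43 and 36) were all in lists with fragments over 160 bp. That of 36 was in TET1 dCD -DSB replicate 3, without 4-OHT. In IDH1 WT +DSB replicate 2, with fragments of 143 bp, it ranked 17. The parts of 4-OHT and of fragment length in these ranks were not tested.

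Of the 25 shared sites of best median rank, 21 had a summit word of 32 bases that occurs more than once in the genome, and 15 lay within 500 kb of a chromosome end. Of the 25, 4 lay nearest to TPTE on the short arm of chromosome 21. Over all 1747 shared sites the word occurred more than once at 127 (7.27%), against 647 (5.68%) of the other strong sites. Among the 1620 sites whose word occurs once, the best median ranks after PROS1 were near WASHC1 (19), NEMF (24.5), TRIM33 (37), RAPGEF1 (49.5) and NPVF (54). NEMF is a ribosome quality control factor and TRIM33 a ubiquitin ligase of the TGF-beta pathway. Copy number of these loci in the cells was not measured.

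The number of lists that share a strong site had a peak at each end. Of the 9632 sites, 962 (9.99%) were in 1 list, 388 (4.03%) were in 23 and 1747 (18.1%) were in all 24, with 211 to 751 sites at each number from 2 to 22. Left out in turn, each list kept nearly all of the sites found in the other 23. These included other lists of the same condition, part of them within sampling noise of it, so the shares are a description only. IDH1 WT +DSB replicate 4 kept the fewest, 1747 of 1827 (95.6%, 95% Wilson interval 94.6 to 96.5%), and 3 lists (IDH1 WT -DSB replicate 4, IDH1 R132H -DSB replicate 4 and IDH1 R132H +DSB replicate 3) kept 1747 of 1749 each (99.9%, lower bound 99.6%). Intervals here and below cover counting error only.

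**Figure D1:**
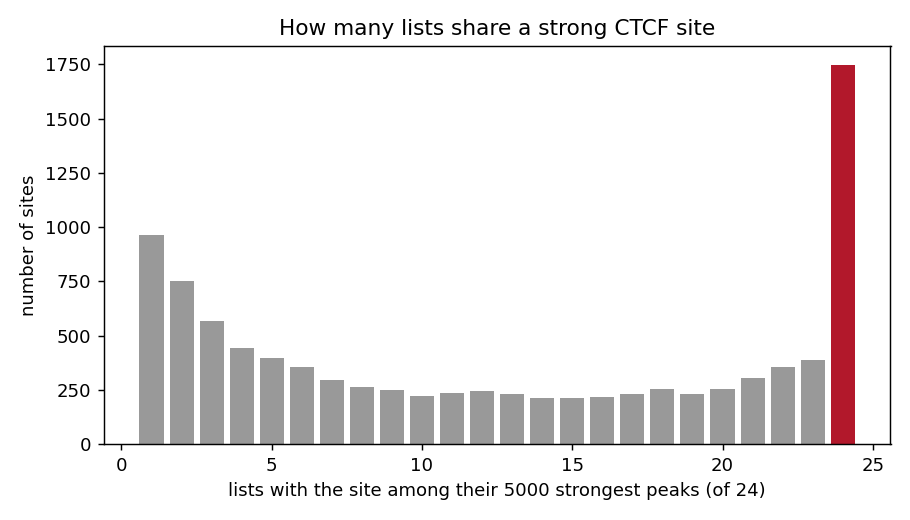
Number of sites (vertical axis) by the number of lists that have the site among their 5000 strongest peaks (horizontal axis, 1 to 24 lists). The red bar is the 1747 sites found in all 24 lists, and the bar at 1 list holds 962 sites.

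The limit of 5000 passed through a dense run of values. Just inside it, the shared sites with the poorest worst rank were near REXO1 (rank 5000 in IDH1 R132H +DSB replicate 3, median 3046.5), IER5 (4999 in IDH1 R132H -DSB replicate 2, median 2651.5) and EXD2 (4998 in IDH1 WT +DSB replicate 4, median 2767.5). Just outside it, the sites missing from 1 list were near PAG1 (5001 in IDH1 WT +DSB replicate 1, median 1318 elsewhere), STON2 (5001 in IDH1 WT +DSB replicate 4, median 1751) and POTEB3 (5002 in IDH1 WT +DSB replicate 4, median 3085). Of the 388 sites in 23 lists, 288 ranked within 6000 in the list that lacked them.

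Ranks at the top were bounded by how many reads a summit can hold. In each of the 24 lists the strongest peak had exactly 2 reads for each base of the fragment length (236 to 388 reads), the number that 1 read per position and strand gives. The median shared site stood at 43.9% to 93.6% of this ceiling. In IDH1 WT +DSB replicates 1, 3 and 4 it stood at 90.1%, 93.6% and 92.2%, and 894, 1348 and 1138 of the 1747 shared sites were within 10% of the ceiling. In the other 21 lists, 16 to 245 were. In those 3 lists the peak of rank 5000 was already at 79.1%, 84.0% and 80.8% of the ceiling, and the strongest shared site had only 1.26, 1.19 and 1.24 times the fold of the weakest.

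**Figure D2:**
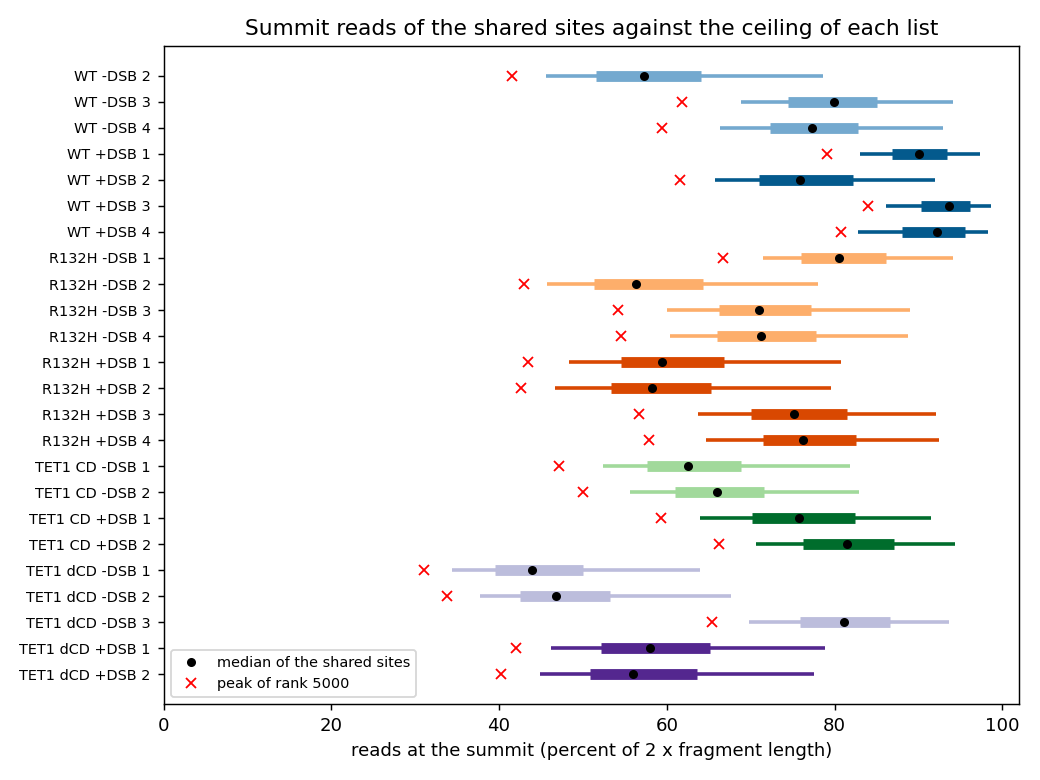
Reads at the summit of the shared sites as a percent of the ceiling of 2 reads per base of fragment (horizontal axis) in each of the 24 lists (rows, condition and replicate); thin bars span the 5th to 95th percentile, thick bars the quartiles, black points the median and red crosses the peak of rank 5000. IDH1 WT +DSB replicates 1, 3 and 4 sit highest, with medians of 90.1%, 93.6% and 92.2%, and TET1 dCD -DSB replicate 1 lowest, with 43.9%.

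As a check of the label, the CTCF core motif was looked for on both strands within 50 bp of the summit. An exact core was present at 540 of the 1747 shared sites (30.9%, 28.8 to 33.1%) and at 26.9% (26.1 to 27.7%) of the other strong sites. With up to 1 mismatch the shares were 72.1% (69.9 to 74.1%) and 69.5% (68.7 to 70.4%), and in a window 500 to 600 bp to the side they were 1.14% and 0.63%. The sites were thus mostly CTCF motifs, and only slightly more often so than the other strong sites. More than 1 core was present within reach of the summit at 107 shared sites (6.12%, 5.09 to 7.35%), against 2.89% (2.60 to 3.21%) of the other strong sites. Of the 216 shared sites that stayed within the strongest 1000 of every list, 20.4% held more than 1 core.

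The 2 groups differed more in the base after the core. Where the core ended in C, the next base was G, which makes a CpG at the core's edge, at 703 of 1154 shared sites (60.9%, 58.1 to 63.7%) and at 2651 of 6951 other strong sites (38.1%, 37.0 to 39.3%). The intervals do not meet. Shared sites with this CpG had stronger median ranks than those without it in each of the 24 lists, at 938 to 1249 against 1198 to 1929. These ranks chose the sites and the lists are not independent, so this is a description only. GC content within 150 bp of the summit was also higher at the shared sites, with a median of 56.7% against 47.3%.

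Shared sites lay close to genes more often than the other strong sites. A protein-coding start was within 1 kb at 365 of them (20.9%, 19.1 to 22.9%), against 1174 of 11383 (10.3%, 9.77 to 10.9%). The summit fell in an exon at 14.0% against 10.6%, within a protein-coding intron at 28.4% against 37.0%, and between genes at 46.8% against 41.0%. The median distance to a protein-coding start was 14.5 kb against 22 kb. The share within 1 kb was 14.7% of the 489 sites whose worst rank was beyond 4000 and 28.7% of the 216 whose worst rank was within 1000. It was 16.8% when the 6 lists with fragments over 160 bp were left out of the choice.

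The 1747 sites had 1503 different nearest protein-coding genes, of which 1314 were nearest to a single site. TPTE was nearest to 6, and COL22A1, a collagen gene on chromosome 8, and GRIN2B, an NMDA receptor subunit on chromosome 12, to 5 each. A further 6 genes had 4, among them the ribosomal protein genes RPL38 and MRPL19.

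By chromosome, shared sites were far from even. Of the strong sites, 213 of 680 on chromosome 17 (31.3%, 28.0 to 34.9%) were shared sites, followed by chromosome 22 (23%), 14 (20.3%), 7 (19.6%) and 12 (18.4%). The lowest were chromosome 13 (3.68%, 7 of 190), X (5.04%), 6 (5.27%), 4 (5.59%) and 16 (5.60%). Within chromosomes the sites came in stretches. Of 248 stretches of 10 Mb with at least 20 strong sites, 8 had at least 40% shared sites and held 321 of them, and 41 had none. The highest were 0 to 10 Mb of chromosome 12 (59 of 115, 51.3%), 70 to 80 Mb of chromosome 17 (51 of 101, 50.5%) and 0 to 10 Mb of chromosome 7 (36 of 73, 49.3%). U2OS-derived cells carry many copy number changes, and the part of copy number in these shares was not tested.

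**Figure D3:**
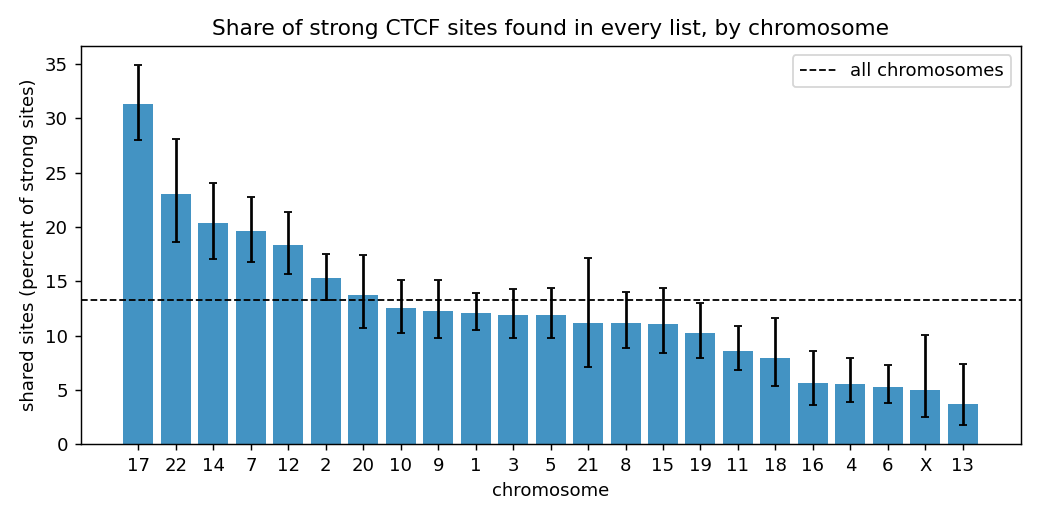
Share of strong sites that were found among the 5000 strongest of every list (vertical axis, percent), by chromosome (horizontal axis, ordered by share), with 95% Wilson intervals as error bars and the share over all chromosomes as a dashed line. Chromosome 17 stands highest at 31.3%, and chromosome 13 lowest at 3.68%; chromosome Y, with 4 strong sites, is left out.

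Neighbouring shared sites on a chromosome were a median of 353 kb apart (quartiles 116 to 1073 kb), over 1724 pairs of neighbours. Neighbours among all strong sites were a median of 99.1 kb apart. Of the pairs, 50 were within 10 kb and 389 within 100 kb, and 121 gaps were wider than 5 Mb. The closest pair lay 2.14 kb apart near RABL2A on chromosome 2, at positions 113602061 and 113604205, and the next closest 2.16 kb apart near NXPH3 on chromosome 17. The widest gaps were 65.6 Mb on chromosome 4, between sites near HNRNPD and ARHGAP10, and 55.5 and 55.3 Mb on chromosome X, from WWC3 to MSN and from SYTL4 to WASH6P.

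Among 24 pairs within 10 kb in which both sites had a core with up to 1 mismatch, 3 pointed toward each other (convergent, 12.5%, 4.34 to 31.0%) and 10 away from each other (divergent, 41.7%, 24.5 to 61.2%). Among 467 pairs 100 kb to 1 Mb apart, 131 were convergent (28.1%, 24.2 to 32.3%) and 114 divergent (24.4%, 20.7 to 28.5%). The intervals of the 2 distance classes overlap, and the nearer class held only 24 pairs, so no difference is shown. Neighbours among all strong sites were convergent in 10.1% (7.88 to 13.0%) within 10 kb and 33.7% (32 to 35.4%) at 100 kb to 1 Mb. Over all distances 25.3% of oriented pairs of shared sites were convergent, 26.4% divergent and 48.2% in the same direction.

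Fixed lists of gene loci were then searched for shared sites in the genes or within 100 kb. Of 20 imprinted, homeobox, protocadherin and other loci known for CTCF insulators, 5 had a shared site and 17 had a strong site. The HOXA cluster, which patterns the body axis, had 5 shared sites among 7 strong sites. The HOXB cluster had 5 among 8, and it lies on chromosome 17, the chromosome with the highest share. The PCDHA and PCDHG protocadherin clusters and PDGFRA had 1 each. None of the imprinted loci in the list, H19 and IGF2 included, had one, but they held few strong sites. KCNQ1 and KCNQ1OT1 had 3, DLK1 and MEG3 2, and H19 and IGF2 1. PEG3, PEG10 and GNAS had 1 each, and MEST and SNRPN 0. Over the genome 1747 of 13130 strong sites were shared, so no conclusion is drawn from this absence.

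In the HOXA cluster the site in HOXA3 at position 27143930 of chromosome 7 ranked 645, 590 and 365 in IDH1 WT -DSB, 203, 543, 372 and 180 in IDH1 WT +DSB, 537, 465, 310 and 525 in IDH1 R132H -DSB, and 490, 742, 473 and 298 in IDH1 R132H +DSB. These groups overlapped. The site in HOXA3 at position 27136585 ranked 2695, 3169 and 1580 in IDH1 WT -DSB, 1045, 1084, 966 and 1622 in IDH1 WT +DSB, 956, 613, 1005 and 1356 in IDH1 R132H -DSB, and 3035, 3623, 3812 and 2545 in IDH1 R132H +DSB. The sites lie 7.345 kb apart, and the second was weaker in each IDH1 R132H +DSB list than in any IDH1 R132H -DSB list. By run name, which sets the lists labelled IDH1 WT -DSB against IDH1 R132H +DSB, its ranks overlapped.

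Of 15 genes for CTCF, cohesin and related factors, 3 had a shared site and 14 a strong site, with 3 shared among 36 strong sites. One lay 0.059 kb from PDS5A, a regulator of cohesin, at median rank 360 and never beyond 659. The others were near WAPL, which releases cohesin, and CTCFL, the germline paralogue of CTCF. Of 19 genes for repair of double-strand breaks, 2 had a shared site and 17 a strong site, with 3 shared among 37 strong sites. XRCC6, the Ku70 subunit, had 2 shared among 6 strong sites, the nearer at 2.76 kb. Of 9 genes for methylation, 3 had a shared site and 7 a strong site, with 7 shared among 26 strong sites. TET3 had 2 among 3, UHRF1 2 among 8 and the methyltransferase gene DNMT3A 3 among 5. CTCF, BRCA1, BRCA2 and IDH1 had no shared site, among 4, 1, 1 and 2 strong sites. TET1 and TET2 had no strong site, so none could be shared.

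The reference holds 1220 AsiSI sites on chromosomes 1 to 22 and X. Of the shared sites, 31 (1.77%) lay within 10 kb of an AsiSI site, against 1.60% of the other strong sites, and 225 (12.9%) within 100 kb, against 11%. The nearest was 36 bp away, near SLC32A1, the vesicular GABA transporter gene, followed by 86 bp near CYB561D1 and 94 bp near SRRM3. The first 2 are shown as the sites closest to a possible break, with the core in capitals.
Near SLC32A1, chr20:38731633-38731693, minus strand: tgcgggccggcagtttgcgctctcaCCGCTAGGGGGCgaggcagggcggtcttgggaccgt
Near CYB561D1, chr1:109493967-109494027, plus strand: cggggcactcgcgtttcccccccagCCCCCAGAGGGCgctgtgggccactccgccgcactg

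The site near SLC32A1 ranked 2590, 2094 and 1746 in IDH1 WT -DSB and 1658, 1505, 1194 and 1375 in IDH1 WT +DSB, without overlap. In IDH1 R132H it ranked 1669, 1188, 1508 and 1759 without and 2381, 1846, 2715 and 1664 with DSB, which overlapped. The site near CYB561D1 ranked 243, 199 and 154 in IDH1 WT -DSB and 570, 419, 588 and 859 in IDH1 WT +DSB, weaker without overlap, and 762, 804, 243 and 298 against 204, 473, 243 and 177 in IDH1 R132H. By run name, which sets the lists labelled IDH1 R132H -DSB against IDH1 WT +DSB, the ranks of both sites overlapped. The site in MED15 lay 619 bp from an AsiSI site. In IDH1 WT it ranked 1087, 1268 and 975 without and 596, 483, 495 and 579 with DSB. It was stronger without overlap, also by run name (784, 790, 955 and 814 untreated). In IDH1 R132H it was weaker by label only. The site near MEF2C, also at 619 bp, ranked 2228, 1224 and 1767 against 1446, 1380, 1299 and 1232, which overlapped. By run name it was stronger without overlap (2131, 2349, 1463 and 1540 untreated). The site 869 bp from an AsiSI site in SPOCK1, a proteoglycan gene, ranked 444, 952 and 505 in IDH1 WT -DSB and 3033, 2128, 2230 and 3143 in IDH1 WT +DSB, and that in SLC2A3, a glucose transporter gene, 299, 205 and 167 against 1275, 1234, 1249 and 1964. By run name the untreated ranks were 2401, 1755, 570 and 573 for SPOCK1 and 874, 1721, 532 and 639 for SLC2A3, and both overlapped the ranks with 4-OHT. Over all 31 sites, 8 (25.8%) were weaker and 6 (19.4%) stronger in IDH1 WT with DSB without overlap. In IDH1 R132H 4 (12.9%) were weaker and 3 (9.68%) stronger. Of the 213 strong sites within 10 kb of an AsiSI site, 22.5% were weaker and 29.1% stronger in IDH1 WT. In IDH1 R132H these shares were 20.2% and 16%. By run name 0 of the 31 were weaker and 4 (12.9%) stronger in IDH1 WT, against 3.76% and 9.86% of the 213. In IDH1 R132H 2 (6.45%) and 1 (3.23%) were, against 2.35% and 4.69%. Among all shared sites the comparisons by label gave 352 weaker (20.1%) and 258 stronger (14.8%) in IDH1 WT and 224 (12.8%) and 181 (10.4%) in IDH1 R132H.

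Ranks within the shared sites were only partly stable. The median site had a median rank of 1220.5, and its worst rank was a median of 5.37 times its best (quartiles 3.82 to 8.73). The narrowest range belonged to sites in RPS24, a ribosomal protein gene, near NOP10, a small nucleolar ribonucleoprotein gene, near XDH, near PKN2 and in DDX54. The site in RPS24 ranked 2929, 3578 and 3259 in IDH1 WT -DSB, 3149, 3498, 4076 and 3652 in IDH1 WT +DSB, 3077, 2529, 2871 and 2964 in IDH1 R132H -DSB and 4270, 3862, 3929 and 3700 in IDH1 R132H +DSB. The widest range belonged to sites near ZNF519, TUBB8, DMRT3, ABCA3 and ACSM6. Shared sites had to rank within 5000 in every list, so a poorer best rank leaves less room for the ratio of worst to best. The best rank was 1507 to 2529 at the sites of narrowest range and 2 to 8 at those of widest. A narrow range is thus partly set by the choice of sites, and stability beyond this was not tested. The site in RPS24 was weaker in each IDH1 R132H +DSB list than in any IDH1 R132H -DSB list, also by run name. These windows show 1 narrow and 1 wide site, with the core in capitals.
In RPS24, chr10:78047434-78047494, plus strand: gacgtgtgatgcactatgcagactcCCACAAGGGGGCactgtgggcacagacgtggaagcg
Near ZNF519, chr18:14178803-14178863, plus strand: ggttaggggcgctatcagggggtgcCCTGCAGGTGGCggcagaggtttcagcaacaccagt

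The correlation of ranks between 2 lists, over the 1747 sites, was a median of 0.70 (Spearman, 276 pairs of lists, 0.28 to 0.95). It was a median of 0.82 in the 27 pairs of the same condition (0.63 to 0.95) and 0.68 in the 249 other pairs (0.28 to 0.93). These pairs share sites, fragment lengths and, in part, libraries, so the values are a description. The lists labelled IDH1 WT -DSB were nearest to those labelled IDH1 R132H +DSB (median 0.82, 0.78 to 0.88), and farther from IDH1 WT +DSB (0.50, 0.28 to 0.57). They were almost as near to TET1 dCD +DSB (0.81, 0.80 to 0.84). Lists labelled IDH1 R132H -DSB were nearest to TET1 CD -DSB (0.82, 0.80 to 0.83), followed by TET1 dCD -DSB (0.75, 0.58 to 0.79), both also mutant cells. They stood at 0.70 (0.54 to 0.89) with IDH1 WT +DSB and 0.63 (0.56 to 0.75) with IDH1 R132H +DSB. TET1 dCD -DSB replicate 3 was nearer to the TET1 CD +DSB lists (up to 0.93) than to replicates 1 and 2 of its own condition (0.63).

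**Figure D4:**
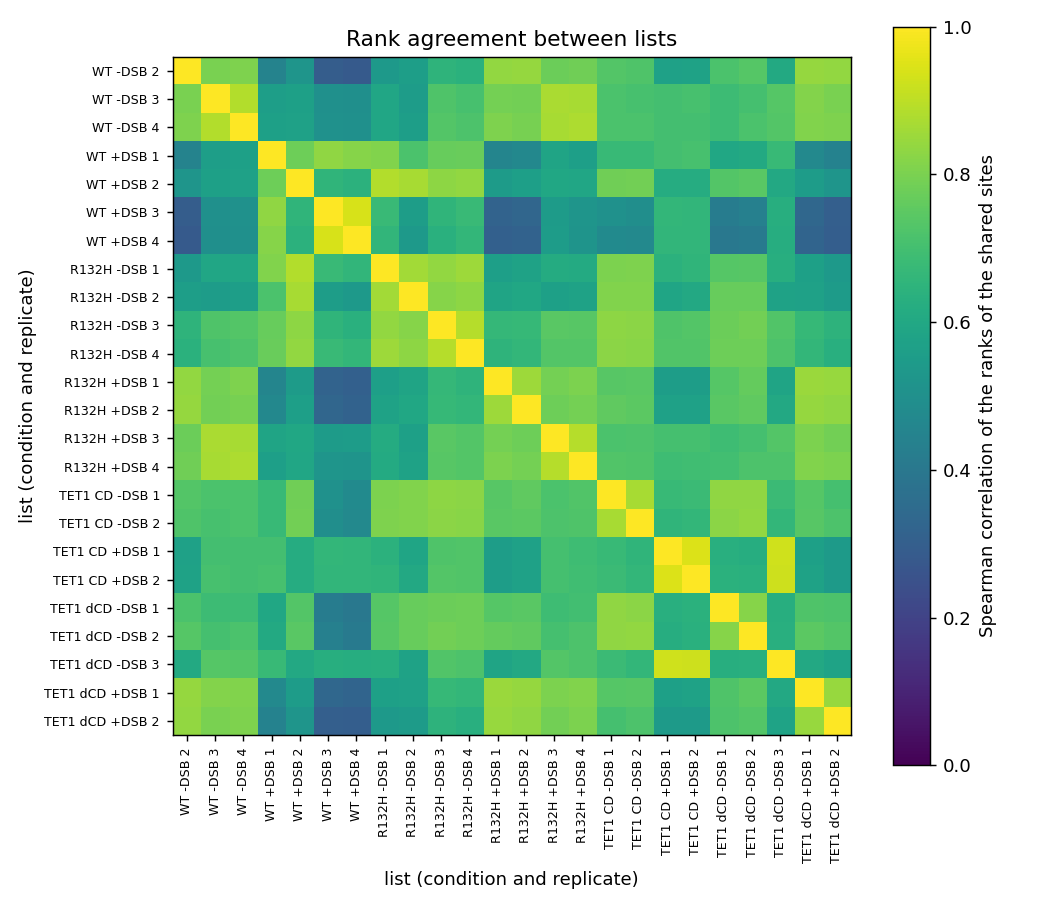
Spearman correlation of the ranks of the 1747 shared sites (colour) between each pair of the 24 lists (both axes, condition and replicate). The darkest cells, down to 0.28, are those of IDH1 WT +DSB replicates 3 and 4. They join these to both TET1 dCD +DSB lists, IDH1 R132H +DSB replicates 1 and 2, and untreated IDH1 WT replicate 2. The TET1 CD +DSB lists form a bright block with TET1 dCD -DSB replicate 3.

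The rank of promoter sites differed between lists with long and with short fragments. In the 6 lists with fragments over 160 bp (IDH1 WT +DSB replicates 1, 3 and 4, both TET1 CD +DSB lists and TET1 dCD -DSB replicate 3) the 365 shared sites within 1 kb of a protein-coding start had median ranks of 630 to 801, and the other 1382 of 1240 to 1672. In the 18 lists with fragments of up to 150 bp they had median ranks of 830 to 1429, against 1142 to 1379.5. The ratio of the 2 medians was 0.38 to 0.61 in the long-fragment lists and 0.71 to 1.13 in the others, without overlap. Within TET1 dCD -DSB the ratio was 1.13 and 1.06 in replicates 1 and 2 (140 and 139 bp) and 0.56 in replicate 3 (172 bp). Within IDH1 WT +DSB it was 0.61, 0.39 and 0.38 in replicates 1, 3 and 4 (191, 181 and 180 bp) and 0.81 in replicate 2 (143 bp). The ratio also varied between short-fragment lists of nearly the same length. In IDH1 R132H +DSB replicates 1 to 4 (122, 121, 127 and 126 bp) it was 1.05, 1.09, 0.71 and 0.77. The median shared site stood at 59.4%, 58.3%, 75.2% and 76.2% of the ceiling there, and the part of this was not tested.

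Ranks of GC-rich sites differed between long-fragment and other lists in the same way. The 440 shared sites with at least 65% GC had median ranks of 441 to 651.5 in the long-fragment lists and 744.5 to 1381.5 in the others, and the 443 with at most 49% GC had 1302 to 2996 and 1045 to 1431. The part of fragment length in the comparisons between conditions was not tested, and for TET1 CD +DSB against TET1 dCD +DSB (194 against 118 and 119 bp) it cannot be told apart from the condition.

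**Figure D5:**
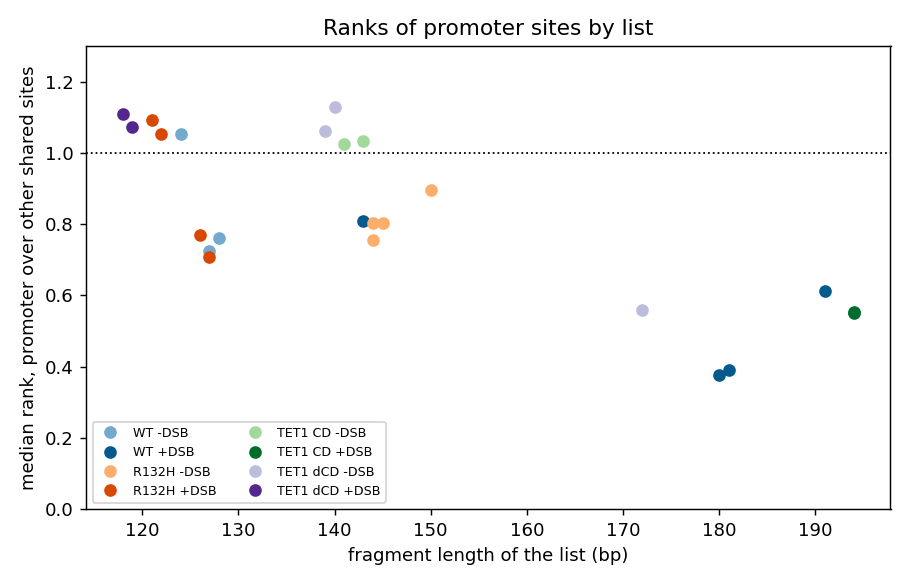
Median rank of promoter sites divided by that of the other shared sites (vertical axis, values under 1 mean that promoter sites were stronger) against the fragment length of the list (horizontal axis, bp), 1 point for each of the 24 lists, coloured by condition. The 6 lists with fragments of 172 bp or more lie between 0.38 and 0.61, and the other 18 between 0.71 and 1.13.

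Since the ranks chose the sites, the comparisons between conditions are given as counts of sites whose ranks did not overlap between the lists of the groups, with no test, beside the share of all 13130 strong sites that did the same. The comparisons share lists: that of genotypes without DSB and that of DSB in IDH1 WT share the IDH1 WT -DSB lists, and so on. Without DSB, 271 shared sites (15.5%) were stronger in IDH1 R132H than in IDH1 WT and 251 (14.4%) weaker, against 18.9% and 22.5% of all strong sites. By run name the groups trade places, so that 251 were stronger and 271 weaker in IDH1 R132H, against 22.5% and 18.9%. With lists within sampling noise averaged, 26.8% were stronger and 30.4% weaker by label, against 29.15% and 39.5%. With DSB, 309 (17.7%) were stronger in IDH1 R132H and 215 (12.3%) weaker, against 26.1% and 19.1%. The shares were below those of all strong sites in each of these 4 cases. Shared sites had to rank within 5000 in every list, and strong sites only within 20000. The choice thus left out sites with larger changes of rank, and no conclusion is drawn from lower shares here or in the comparisons below.

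With 4-OHT, 258 shared sites (14.8%) were stronger and 352 (20.1%) weaker in IDH1 WT, against 21.1% and 29.5% of all strong sites. In IDH1 R132H, 181 (10.4%) were stronger and 224 (12.8%) weaker, against 17.9% and 16.4%. By run name in place of label, only 70 (4.01%) were stronger and 100 (5.72%) weaker in IDH1 WT, against 5.44% and 7.44% of all strong sites, and 62 (3.55%) and 53 (3.03%) in IDH1 R132H, against 3.34% and 3.32%. The change with 4-OHT thus depended on which untreated lists were set against the treated ones.

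Over both treatments together, no shared site separated the 8 lists labelled IDH1 R132H from the 7 labelled IDH1 WT, in either direction, against 0.0305% (stronger in IDH1 R132H) and 0.0533% (weaker) of all strong sites. By run name, 108 (6.18%) were stronger and 88 (5.04%) weaker in the 7 lists of mutant cells than in the 8 of wild-type cells, against 10.2% and 10.5%.

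RNF216, a ubiquitin ligase gene, shows this at 1 site, 0.12 kb from its start on chromosome 7 (position 5781818). It ranked 3430, 1667 and 2194 in IDH1 WT -DSB and 64, 79, 29 and 62 in IDH1 WT +DSB, but 72, 83, 179 and 205 in IDH1 R132H -DSB and 1957, 2919, 1743 and 1811 in IDH1 R132H +DSB. By label the site changed in opposite directions with 4-OHT in the 2 genotypes, and by run name it ranked 29 to 205 in all 8 wild-type lists and 1667 to 3430 in all 7 mutant lists. The site near ZNF519, whose summit word occurs 2 times in the genome, had the same form, at 2 to 144 in the wild-type and 1012 to 2783 in the mutant lists by run name.

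COG2, a gene of the Golgi complex, had the opposite form at a site 0.12 kb from the gene. It ranked 252, 169 and 121 in IDH1 WT -DSB, 2164, 2974, 1967 and 912 in IDH1 WT +DSB, 2981, 1886, 1051 and 846 in IDH1 R132H -DSB and 374, 278, 134 and 150 in IDH1 R132H +DSB. By run name it ranked 846 to 2981 in the wild-type lists and 121 to 374 in the mutant lists. The site in BET1L, at position 180345 of chromosome 11, ranked 38, 35 and 48 in IDH1 WT -DSB, 2423, 137, 3862 and 3370 in IDH1 WT +DSB, 75, 108, 67 and 97 in IDH1 R132H -DSB, and 42, 57, 49 and 38 in IDH1 R132H +DSB. Its poorest ranks in IDH1 WT +DSB were those of the 3 long-fragment lists, and its summit word occurs 6 times in the genome.

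Between TET1 CD and TET1 dCD without DSB, 235 shared sites (13.5%) were stronger and 113 (6.47%) weaker in TET1 CD, against 10.6% and 7.49% of all strong sites. Without TET1 dCD -DSB replicate 3 the share stronger was 27.0%, against 21.9% of all strong sites. Without TET1 CD -DSB replicate 1 the share weaker was 17.5%, and no share of all strong sites was computed for it. By run name, with 2 lists against 1, 37.4% were stronger and 41.3% weaker, against 37.1% and 41.4%. With DSB, 681 (39.0%) were stronger and 541 (31.0%) weaker, with 2 lists a group, against 36.2% and 34.5%. By run name 271 (15.5%) were stronger and 229 (13.1%) weaker, against 15% and 14%. Among the 365 promoter sites 233 were stronger (63.8%) and 46 weaker (12.6%) in TET1 CD with DSB, against 66.3% and 15.1% of the 1539 promoter sites among all strong sites. Among the other 1382 shared sites 448 were stronger (32.4%) and 495 weaker (35.8%), against 32.2% and 37.1%. These shares lay near those of all strong sites. By run name 84 promoter sites (23%) were stronger and 16 (4.38%) weaker, against 24.1% and 5.98% of the 1539.

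The site in ZBTB7B, a zinc finger transcription factor gene of T cells, ranked 190 and 122 in TET1 CD +DSB and 4445 and 4978 in TET1 dCD +DSB, and 350 and 358 against 1537, 524 and 323 without DSB, where the groups overlapped. The site near TRIM38 ranked 119 and 118 against 4844 and 2384 with DSB. In the other direction, the site near DMRT3 ranked 3066 and 2197 in TET1 CD +DSB and 56 and 46 in TET1 dCD +DSB. It also ranked 2347 in TET1 dCD -DSB replicate 3, the other long-fragment list of the TET1 samples, against 50 and 42 in replicates 1 and 2. By run name replicates 1 and 2 are TET1 CD lists with 4-OHT, and the ranks of the TET1 CD and TET1 dCD lists with DSB then overlap. In the long-fragment lists of IDH1 WT +DSB it ranked 5, 16 and 13, and its summit word occurs 5 times in the genome.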

How the data were processed

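Chromatin was precipitated with a CTCF antibody and sequenced. The authors trimmed reads with cutadapt 1.18, mapped them to hg38 with Bowtie2 2.3.4.1 (submitters' processing notes) and called peaks for each sample with MACS2 against input. The deposited peak lists give for each peak its fold over background (a ratio), −log10 p and −log10 q, a whole-number score made from the −log10 p, and the summit offset. These values are set within a list and were not normalized between lists by the authors, so only ranks are compared. Reads at the summit were recovered from the steps of the fold.

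Sites, the CTCF core motif (12 bases, both strands), GC within 150 bp, copies of the 32 bases at the summit and AsiSI sites (GCGATCGC) were computed on GRCh38 with GENCODE 44, in Python 3.11.15 with numpy 2.4.6, pandas 2.3.3, scipy 1.17.1, pysam 0.24.0 and matplotlib 3.10.9, and the steps were tested on simulated data. No test was made between conditions, since the ranks chose the sites. Ranges in brackets are 95% Wilson intervals.

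Named genes are the nearest protein-coding genes of the 10 sites of best median rank, the 5 of narrowest and 5 of widest rank range, the 3 on each side of rank 5000, up to 10 nearest AsiSI sites, those in fixed gene lists, the 2 with the largest change of median rank per comparison and direction, the closest pair and the 3 widest gaps. Others (single-copy sites, the next closest pair, genes with most sites) were chosen after their values were seen. The sites and lists were chosen with earlier results of these data known. Alternatives changed the number of peaks taken, the joining distance, the ranking column, the chromosomes, the lists, the groups and each window. Replicate 1 of untreated IDH1 WT cells was not used here. Results on some genes and sequences are not reported here.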

Additional observations from a re-analysis of the deposited data

Results flagged for a closer look

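The median rank of the 127 shared sites whose summit word occurs more than once in the genome moved in opposite directions in 3 comparisons, and the differences were not tested. In IDH1 WT it was 998 with and 411 without DSB, and in IDH1 R132H 415 with and 588.5 without, a difference between the changes of 760.5. The same 4 medians give 760.5 for IDH1 R132H against IDH1 WT, weaker without and stronger with DSB. For TET1 CD against TET1 dCD the medians were 527 and 627 without DSB and 1278 and 337.5 with DSB, a difference between the changes of -1040. By run name the untreated medians were 588.5 in IDH1 WT and 411 in IDH1 R132H, so that both rose in number with DSB (to 998 and 415) and IDH1 R132H was the stronger in both treatments, and 2 of the 3 opposite directions were lost. For TET1 by run name the medians were 527 and 1065 without DSB, with 1 TET1 dCD list, and 913.5 and 337.5 with DSB. Long-fragment lists were among the lists of IDH1 WT +DSB, TET1 CD +DSB and TET1 dCD -DSB, and their part in this was not tested.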

How the results depend on the processing

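The number of shared sites was 506 with 2000 and 4894 with 10000 peaks taken per list. Their median spacing was 762 and 182 kb, the share within 1 kb of a start 25.7% and 16.1%, and the share within 10 kb of an AsiSI site 2.77% with 2000. Wider windows gave 33.7% within 5 kb of a start and 12.9% within 100 kb of an AsiSI site. A core with up to 1 mismatch, an alternative chosen after seeing the data, gave 72.1%. Without the 6 lists with fragments over 160 bp, also chosen after seeing the data, the spacing was 300.3 kb and the share within 1 kb of a start 16.8%.

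Shares whose ranks did not overlap, stronger then weaker in the first group, depended on the lists. With lists within sampling noise averaged they were 26.8% and 30.4% (IDH1 R132H against WT, -DSB; all strong sites 29.15% and 39.5%), 27.0% and 19.6% (+DSB; 34.65% and 24.6%), 23.01% and 32.1% (DSB in WT; 27.5% and 39.2%), 23.6% and 22.4% (DSB in R132H; 33.5% and 25.7%), and 30.6% and 22.4% (TET1 CD against dCD, -DSB; 28.8% and 25.9%). By run name they were 4.01% and 5.72% (DSB in WT), 3.55% and 3.03% (DSB in R132H), 37.4% and 41.3% (TET1, -DSB, with 1 TET1 dCD list) and 15.5% and 13.1% (TET1, +DSB), with the shares of all strong sites at 5.44% and 7.44%, 3.34% and 3.32%, 37.1% and 41.4%, and 15.05% and 14.0%. Without long-fragment lists they were 37.2% and 24.3% (IDH1 R132H against WT, +DSB; all strong sites 43.3% and 30.3%), 28.4% and 41.6% (DSB in WT; 32.7% and 46.5%) and 24.9% and 15.2% (TET1, -DSB; 21.9% and 14.6%). Fewer lists in a group leave fewer ranks that could overlap.

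Leaving out each list in turn gave 1749 to 1827 sites, spacing of 341 to 354 kb, 20.0% to 21.4% within 1 kb of a start, 30.7% to 31.6% with an exact core, a median correlation of 0.69 to 0.71 and 1.70% to 1.87% near AsiSI sites. The non-overlapping shares were 15.2% to 19.6% and 14.2% to 23.8% (IDH1 R132H against WT, -DSB), 17.4% to 25.7% and 12.1% to 18.6% (+DSB), 14.4% to 21.1% and 19.9% to 27.6% (DSB in WT), and 10.2% to 14.3% and 12.6% to 15.6% (DSB in R132H). For TET1 CD against dCD they were 13.2% to 27.0% and 6.40% to 17.5% (-DSB), and 38.0% to 48.8% and 30.5% to 40.1% (+DSB). The highest at -DSB came without TET1 dCD -DSB replicate 3 and TET1 CD -DSB replicate 1, in that order. Shares of all strong sites were not computed for each list left out, so these ranges have no background beside them. No paired analysis was possible because these results come from no test.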
